A study of Mus musculus with 2 samples.

Results

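The 3 metallothionein genes Mt1, Mt2 and Mt3 and the ceruloplasmin gene Cp were described after 9 days of differentiation of MM13, a line of mouse embryonic stem cells. They were taken by symbol, 4 of the 31053 genes counted, and were chosen because Mt2 and Cp were known from these same data to be lower in dorsal midline cells under RA+BMP4, so their levels are a description and carry no test. 1 culture was grown under RA+BMP4 (retinoic acid with bone morphogenetic protein 4, the signal of the dorsal neural tube) and 1 under RA alone, and each gave 1 droplet library of 3′ ends counted by unique molecular identifiers (UMIs). With 1 library per condition no difference between conditions has a replicate check, and the 95% intervals given below cover counting error only.

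Metallothioneins are small cysteine-rich proteins that bind zinc and copper. Mt1 and Mt2 are made in many tissues and are induced by zinc and cadmium through the transcription factor MTF1, and by glucocorticoids. Mt3 is found mainly in brain, where it was first known as a growth inhibitory factor for neurons. Ceruloplasmin is a copper-carrying ferroxidase, which oxidises iron as it leaves cells through ferroportin. It is secreted by liver, and it is also made by astrocytes and by the choroid plexus, an epithelium that arises from the roof plate of the hindbrain and forebrain.

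The libraries held 13121 barcodes and 115268932 UMIs under RA+BMP4 and 9704 barcodes and 122110565 UMIs under RA. After filtering, 8352 RA+BMP4 cells (median 10465 UMIs) and 5900 RA cells (median 14196 UMIs) were kept, and 43 barcodes occurred in both libraries, 21 of them among kept cells. The kept cells formed 24 clusters, named "-like" from marker genes, and 5 of these made up the dorsal midline-like class. That class had 2918 RA+BMP4 cells (34.9% of the library) and 1063 RA cells (18.0%). Levels are given as UMIs of the gene per 1000000 UMIs of the cells described (CPM), and log2 ratios are RA+BMP4 over RA.

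The dorsal midline name was checked against roof plate genes. Msx1, a homeobox gene of the dorsal neural tube, stood at 549 CPM in RA+BMP4 and 433 CPM in RA cells of the class. In all other kept cells it stood at 25.1 CPM under RA+BMP4 and 11.7 CPM under RA. Wnt1, a roof plate signal, stood at 225 CPM in RA+BMP4 and 111 CPM in RA cells, and Lmx1a, a roof plate regulator, at 59.5 CPM and 47.0 CPM in the same order. Gdf7, a defining roof plate ligand, was nearly absent, with 3.70 CPM under RA+BMP4 and 0.70 CPM under RA. Clusters 9, 11 and 15 had no roof plate gene among their 10 leading genes and took the name from lower-ranking markers.

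The metallothionein genes lie together on chromosome 8 of the GRCm38 build, all on the plus strand, in the order Mt4, Mt3, Mt2 and Mt1. Mt3 spans 94152607 to 94154146, Mt2 spans 94172664 to 94173568 and Mt1 spans 94179082 to 94180327, with 5513 bases between Mt2 and Mt1. Mt4, a metallothionein of stratified epithelia, had 0 UMIs in dorsal midline-like cells of either library. Cp spans 19957054 to 20009145 on the plus strand of chromosome 3, and its 3′ end overlaps Hps3 on the minus strand. Mt2 overlaps the minus-strand gene Gm45774, which had 62 UMIs over both libraries. Whether strand was used in counting is not given in the sources used here, so reads of overlapping genes may have been mixed.

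The 250 bases before the starts that RefSeq annotates for Mt1 and Mt2 are shown because both genes are known targets of MTF1, which binds metal response elements. The core of that element was searched as TGCACNC or TGCGCNC on both strands, and matches are in capitals. No matches overlapped. Mt1 has 1 match in this window (chr8:94178839-94179088, GRCm38.p6, plus strand) and Mt2 has 3 (chr8:94172368-94172617).
Mt1: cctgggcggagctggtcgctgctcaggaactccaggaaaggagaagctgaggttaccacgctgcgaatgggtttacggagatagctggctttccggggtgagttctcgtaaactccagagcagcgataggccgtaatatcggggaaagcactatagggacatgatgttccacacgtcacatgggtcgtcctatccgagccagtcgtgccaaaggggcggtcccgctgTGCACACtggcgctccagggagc
Mt2: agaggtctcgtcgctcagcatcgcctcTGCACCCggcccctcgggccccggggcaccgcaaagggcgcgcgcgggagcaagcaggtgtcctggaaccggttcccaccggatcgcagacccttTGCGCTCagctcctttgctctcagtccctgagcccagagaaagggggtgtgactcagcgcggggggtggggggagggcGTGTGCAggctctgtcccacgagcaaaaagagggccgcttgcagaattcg
Of 32851 promoter windows of the same length, 21.4% held at least 1 match and 1.26% held at least 3. The windows of Mt3 and Cp held 0 matches, which says only that these letters are not in those 250 bases. Transcription may also start at other positions than the annotated ones, so these windows need not hold the proximal promoter, and the numbers of matches do not compare the genes.

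**Figure D1:**
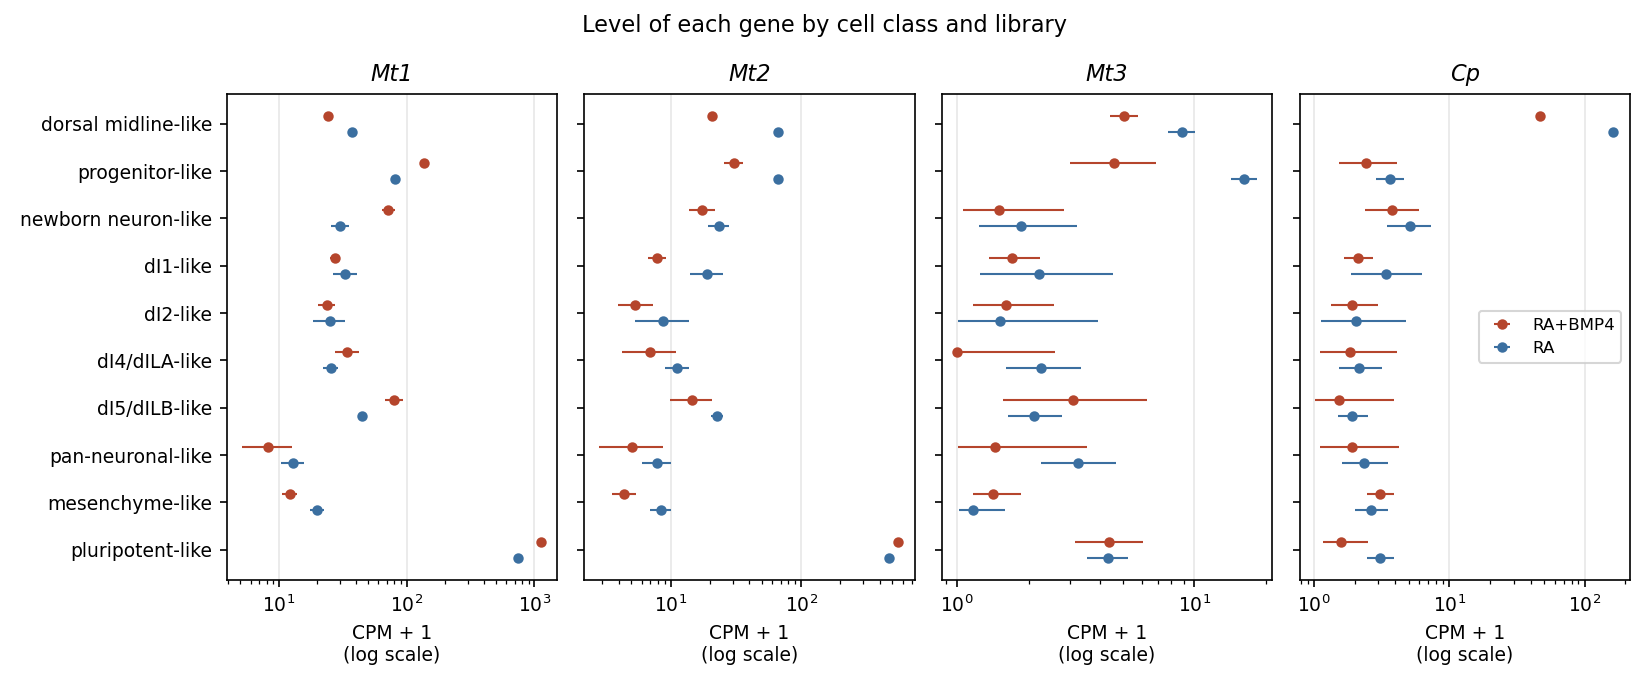
Level of each gene in 10 cell classes (neural crest and glia-like cells, with 1 RA cell, are not drawn), as CPM plus 1 on a log axis, RA+BMP4 above RA within each class; bars are 95% Poisson intervals of the summed counts and cover counting error only. Mt1 and Mt2 stand highest in pluripotent-like cells, and Cp stands apart in dorsal midline-like cells, at 45.9 CPM under RA+BMP4 and 161 CPM under RA.

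Most UMIs of Mt1 and Mt2 lay in residual pluripotent-like cells, and most UMIs of Cp lay in dorsal midline-like cells. The pluripotent-like class, 180 RA+BMP4 cells and 327 RA cells led by Dppa5a, L1td1 and Zfp42, held 68.4% of the Mt1 UMIs of the RA+BMP4 library and 77.3% of those of the RA library. It held 73.5% of the Mt2 UMIs under RA+BMP4 and 71.9% under RA. Dorsal midline-like cells held 94.3% of the Cp UMIs under RA+BMP4 and 95.8% under RA. Mt3 UMIs lay mostly in dorsal midline-like cells under RA+BMP4 (65.1%, of 218 UMIs), whereas under RA 42.4% of 528 UMIs lay in progenitor-like cells and 33.9% in dorsal midline-like cells.

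Over all kept cells, which mix these classes in different shares, all 4 genes were lower under RA+BMP4. Mt1 stood at 109 CPM under RA+BMP4 and 160 CPM under RA, a log2 ratio of -0.55. Mt2 stood at 49.8 CPM under RA+BMP4 and 108 CPM under RA (-1.11). Cp stood at 16.8 CPM under RA+BMP4 and 35.2 CPM under RA (-1.07), and Mt3 at 2.14 CPM under RA+BMP4 and 4.84 CPM under RA (-1.18). Among the 7152 genes that reached 20 CPM in either library, 0.601% were at least 2-fold lower under RA+BMP4, and Mt2 and Cp were among them. Both were chosen as lower in dorsal midline cells of these same data, so nothing is read from their place there. With pluripotent-like cells left out, a step chosen once the values were known, the ratio of Mt1 shrank to -0.23, while Mt2 had -1.36 and Cp -1.22.

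Among the named classes, Mt1 had its 3 highest values in the same classes in both libraries. Under RA+BMP4 the interval of dI5/dILB-like cells overlapped that of newborn neuron-like cells, so that place is not resolved. Pluripotent-like cells came first, with 1118 CPM under RA+BMP4 and 743 CPM under RA, a log2 ratio of 0.59. Progenitor-like cells, led by the neural progenitor genes Hes5 and Sox21, followed with 137 CPM under RA+BMP4 and 79.3 CPM under RA (0.78, interval 0.64 to 0.93). The dI5/dILB-like sensory interneurons came next with 78.6 CPM under RA+BMP4 and 43.5 CPM under RA (0.85, 0.59 to 1.11). Of that class, cluster 14, led by Tlx1, Tlx3 and Lmx1b, held 67 RA+BMP4 and 453 RA cells. Cluster 1, with Pou4f1 and Pou4f2 among its leading genes, held 140 and 820. Mt1 and Mt2 UMIs together were 135 under RA+BMP4 and 578 under RA in cluster 14, and 42 and 421 in cluster 1. The class level under RA+BMP4 thus lay mostly in its smaller cluster. Mesenchyme-like cells were low in both, with 11.2 CPM under RA+BMP4 and 19.0 CPM under RA. In that class Mt1 had a log2 ratio of -0.77. The intervals overlapped between 6 of the 10 neighbouring pairs of classes under RA+BMP4 and 5 of the 9 under RA, so the order among the lower classes is not resolved.

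The higher Mt1 level of some RA+BMP4 classes sat partly in a few cells. Newborn neuron-like cells, which express Neurog2 and Neurod4, had 70.8 CPM under RA+BMP4 and 29.3 CPM under RA, a log2 ratio of 1.27. In that class 0.831% of the 6498 genes tested were at least 2-fold higher. There, 6 of the 366 RA+BMP4 cells had at least 10 Mt1 UMIs and together held 54.1% of its Mt1 UMIs, whereas 0 of the 323 RA cells reached 10. With such cells left out, the levels were 33.1 CPM under RA+BMP4 and 29.3 CPM under RA (0.18). In dI5/dILB-like cells the same step left 53.8 CPM under RA+BMP4 and 39.4 CPM under RA, and in progenitor-like cells 96.7 CPM and 59.1 CPM. Of the 6 high newborn neuron-like cells 1 had a UMI of any of the 8 pluripotent markers, near the 16.4% of all RA+BMP4 cells of that class. In RA progenitor-like cells 8 of the 18 high cells had such a UMI, where 45.6% of the class did. In RA dorsal midline-like cells 6 of 7 did, where 46.4% of the class did. The part of pluripotent RNA in the high cells was not tested. In cells thinned to 5000 UMIs each, Mt1 was found in 36.8% of RA+BMP4 and 24.5% of RA progenitor-like cells (exact binomial intervals 31.5 to 42.3% and 21.6 to 27.5%).

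Mt2 shared its highest class with Mt1, and the sign of its ratio with Mt1 in some classes but not in others. In pluripotent-like cells it stood at 547 CPM under RA+BMP4 and 466 CPM under RA, a log2 ratio of 0.23 (0.18 to 0.29). In progenitor-like cells it stood at 29.5 CPM under RA+BMP4 and 66.0 CPM under RA (-1.16, -1.44 to -0.89). There 0.601% of 6660 genes were at least 2-fold lower. In dI1-like cells, the Barhl1- and Barhl2-expressing interneurons, Mt2 stood at 6.94 CPM under RA+BMP4 and 18.1 CPM under RA. That class was made up differently in the libraries: cluster 3 held 816 of its RA+BMP4 cells and 14 of its RA cells, and cluster 12 held 447 and 110 in the same order. In mesenchyme-like cells Mt2 stood at 3.41 CPM under RA+BMP4 and 7.45 CPM under RA.

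**Figure D2:**
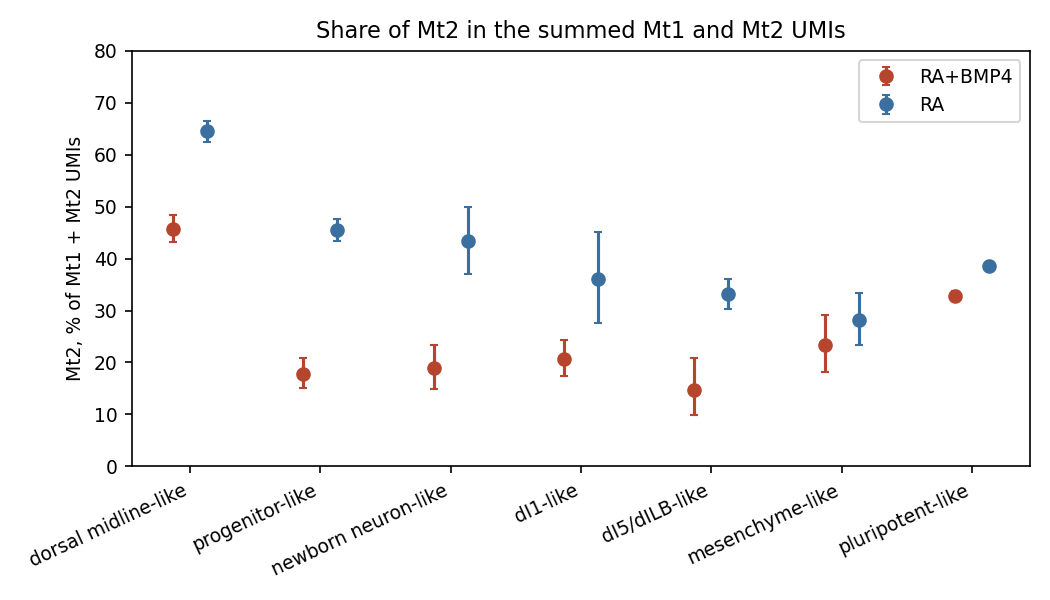
Mt2 as a percentage of the summed Mt1 and Mt2 UMIs, RA+BMP4 left of RA, in the 7 classes with at least 100 such UMIs in each library; bars are 95% exact binomial intervals for counting error. The RA+BMP4 point is lower in every class shown, and the intervals overlap only in mesenchyme-like cells.

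The balance between the neighbouring genes differed between the libraries across cell types. As a share of the Mt1 and Mt2 UMIs together, Mt2 made up 45.8% in RA+BMP4 and 64.5% in RA dorsal midline-like cells. In progenitor-like cells it made up 17.8% under RA+BMP4 and 45.4% under RA, in newborn neuron-like cells 18.9% and 43.3%, and in dI5/dILB-like cells 14.7% and 33.1%. The newborn neuron-like share under RA+BMP4 leaned on the few cells with at least 10 Mt1 UMIs. Without them 48 Mt2 and 130 Mt1 UMIs were left, against 66 and 283 with them. Under RA the counts were 104 and 136 either way. Pluripotent-like cells were closer, with 32.9% under RA+BMP4 and 38.5% under RA. The share was lower under RA+BMP4 in 7 of 7 classes with at least 100 UMIs of both genes in each library, and in 6 of them the intervals did not overlap. Of 12 clusters with as many UMIs, 10 were lower under RA+BMP4. The exceptions were cluster 9, with 68.4% under RA+BMP4 and 63.3% under RA, and the unnamed cluster 23 led by S100g, with 18.9% and 10.4%. Mt2 was chosen as lower in dorsal midline cells of these same data, and that class and its clusters are in these counts. All classes also share the same libraries, so the counts are a description and not separate observations.

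Mt3 was rare everywhere. Its highest level was in RA progenitor-like cells, with 15.2 CPM, against 3.57 CPM in RA+BMP4 progenitor-like cells, a log2 ratio of -2.09 (-2.96 to -1.34) resting on 15 RA+BMP4 and 224 RA UMIs. In cells thinned to 5000 UMIs it was found in 1.25% of RA+BMP4 and 6.53% of RA progenitor-like cells. Dorsal midline-like cells had 4.05 CPM under RA+BMP4 and 7.83 CPM under RA (-0.95, -1.28 to -0.63). Neurons of all classes together had Mt3 in 0.442% of RA+BMP4 and 0.491% of RA cells after thinning. Mt3 stayed under 20 CPM in both libraries and was not among the genes ranked by ratio.

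In dorsal midline-like cells Mt2 and Cp, the genes chosen for this difference, were lower under RA+BMP4. Mt2 stood at 19.7 CPM under RA+BMP4 (690 UMIs) and 65.7 CPM under RA (1503 UMIs), 3.34-fold lower, a log2 ratio of -1.74 (-1.87 to -1.61). Cp stood at 45.9 CPM under RA+BMP4 (1610 UMIs) and 161 CPM under RA (3674 UMIs), 3.50-fold lower, a log2 ratio of -1.81 (-1.89 to -1.72). Counted from the lowest ratio, Cp was the gene of rank 6 and Mt2 that of rank 7 of the 7020 genes that reached 20 CPM in either library. Of those genes 1.21% were at least 2-fold lower. Since Mt2 and Cp were chosen on this difference, nothing is read from that share or from their ranks. Mt1 stood at 23.3 CPM under RA+BMP4 and 36.2 CPM under RA, a log2 ratio of -0.64 (-0.78 to -0.49) and rank 203. The ratio of Cp moved with the choice of cells: it was -1.13 under a stricter cell filter that left 191 RA cells of the class, and -0.87 when each library was clustered alone.

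**Figure D3:**
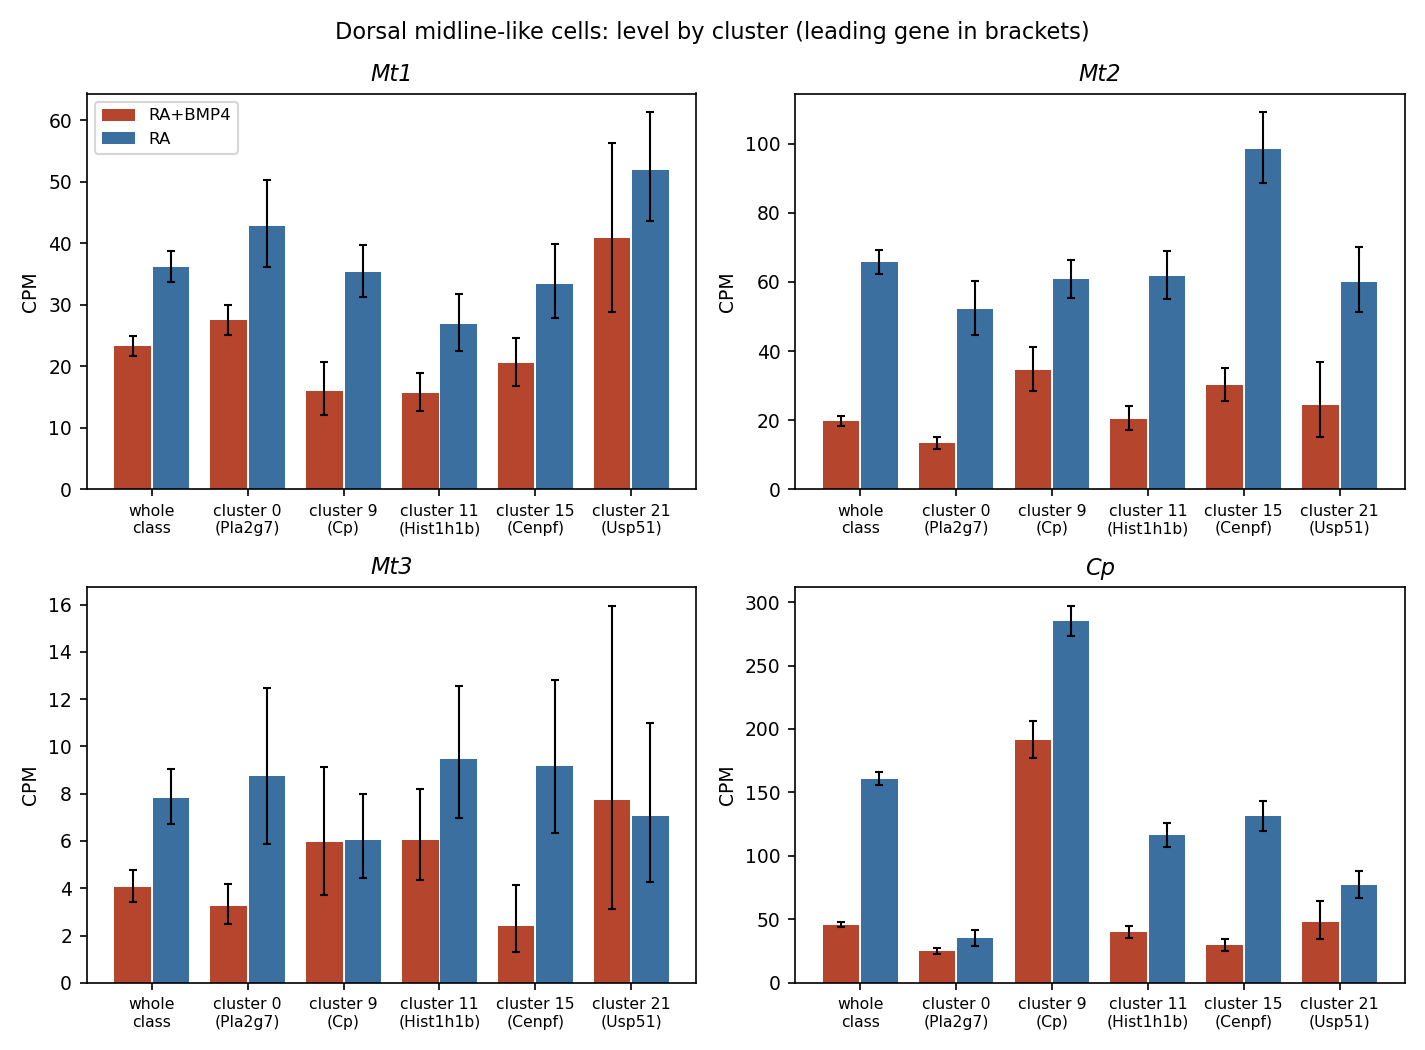
Level of each gene in the dorsal midline-like class and its 5 clusters, in CPM from 0, RA+BMP4 left of RA; bars carry 95% Poisson intervals for counting error only. Cp is highest in cluster 9 in both libraries, and the Mt2 bar of RA+BMP4 is below that of RA in each cluster.

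The makeup of the class differed between the libraries, and Cp varied strongly within it. Cluster 9, led by Cp and Colec12 although Cp was left out of the clustering genes, held 8.33% of the RA+BMP4 and 33.4% of the RA cells of the class. Cluster 0, led by Pla2g7, Wnt1 and Rspo3, held 62.5% under RA+BMP4 and 21.6% under RA. Cp stood at 191 CPM under RA+BMP4 and 285 CPM under RA in cluster 9, and at 25.1 CPM and 34.9 CPM in cluster 0. Within these clusters the log2 ratios were -0.58 and -0.48, smaller than in the class as a whole. In the cycling clusters 11 and 15 Cp stood at 39.9 and 29.8 CPM under RA+BMP4 and 116 and 131 CPM under RA, ratios of -1.54 and -2.14. With each cluster weighted by its share of the UMIs, not of the cells, of the RA class, the ratio of Cp was -0.84 and that of Mt2 was -1.32.

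Mt2 was lower under RA+BMP4 in every cluster of the class, and at least 2-fold lower in 4 of the 5, whereas Cp was at least 2-fold lower in clusters 11 and 15 alone. The share of tested genes at least 2-fold lower was 0.231% in cluster 0, 0.279% in cluster 9, 0.698% in cluster 11, 1.86% in cluster 15 and 0.938% in cluster 21. In cluster 0 it stood at 13.3 CPM under RA+BMP4 and 52.1 CPM under RA, a log2 ratio of -1.97. The cycling cluster 15, led by Cenpf, had the highest RA level, 98.5 CPM, against 30.1 CPM under RA+BMP4 (-1.71). Cluster 11 had 20.3 CPM under RA+BMP4 and 61.8 CPM under RA (-1.60), and cluster 21, led by Usp51, had 24.3 CPM and 60.1 CPM (-1.31). Cluster 9 had the smallest ratio of the 5, -0.82, with 34.4 CPM under RA+BMP4 and 60.8 CPM under RA. Mt1 was lower under RA+BMP4 in the same 5 clusters, with ratios between -1.15 and -0.34, and its interval included 0 in cluster 21.

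**Figure D4:**
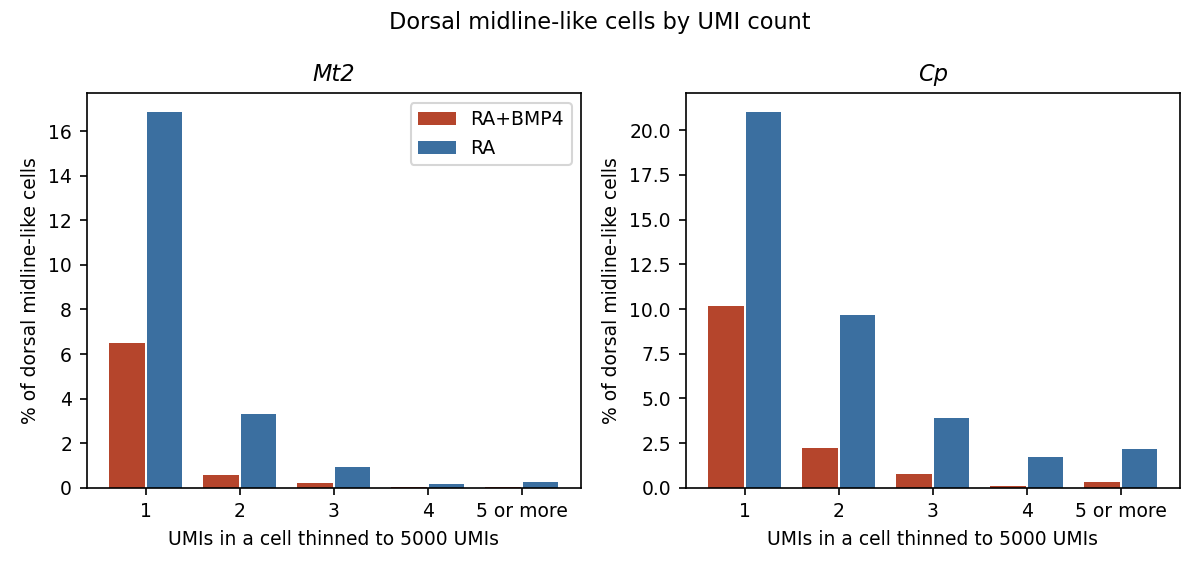
Percentage of dorsal midline-like cells with 1, 2, 3, 4 or at least 5 UMIs of Mt2 and of Cp after each cell was thinned to 5000 UMIs, RA+BMP4 left of RA. At least 5 UMIs of Cp were found in 0.315% of cells under RA+BMP4 and in 2.18% under RA.

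RA cells of the class were deeper, with a median of 10694.5 UMIs under RA+BMP4 and 17398 UMIs under RA, so shares of cells were compared after thinning each cell to 5000 UMIs. This left out 61 RA+BMP4 and 6 RA cells. Cp was then found in 13.6% of RA+BMP4 and 38.4% of RA cells (exact binomial intervals 12.3 to 14.9% and 35.5 to 41.4%), against 25.5% and 64.1% unthinned. Neurons, at median depths of 9364.5 and 12219 UMIs, had Cp in 0.442% of RA+BMP4 and 0.566% of RA cells, which was taken as the background, since neurons should lack it. Mt2 was found in 7.32% of RA+BMP4 and 21.6% of RA dorsal midline-like cells (unthinned 15.9% and 53.1%). In mesenchyme-like cells, a class with a low Mt2 level, it was found in 2.09% of RA+BMP4 and 3.50% of RA cells, at median depths of 15726.5 and 24977.5 UMIs. In the cells with Cp, the mean count after thinning was 1.40 UMIs under RA+BMP4 and 1.86 UMIs under RA.

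Markers of pluripotent cells, which carry much Mt1 and Mt2, moved with the Mt2 result. Their 8 genes summed to 19.0 CPM in RA+BMP4 and 74.2 CPM in RA dorsal midline-like cells, with 0 of the 8 at 0 in either library. If that RNA came with Mt2 in the ratio seen in pluripotent-like cells, it would carry 1.47 CPM of Mt2 under RA+BMP4 and 5.12 CPM under RA. The rest was 18.2 CPM under RA+BMP4 and 60.6 CPM under RA. In dorsal midline-like cells without a UMI of those markers, Mt2 stood at 18.4 CPM under RA+BMP4 and 60.2 CPM under RA (-1.71), and Cp at 42.0 CPM and 154 CPM (-1.87). At these marker levels a cell without such a UMI may still hold pluripotent RNA, so leaving cells out need not remove it. The part of pluripotent RNA in these ratios was not tested. The mitochondrial share also differed, with a median of 4.28% under RA+BMP4 and 6.05% under RA, and its part in the result was not tested. Progenitor markers in the class summed to 2862 CPM under RA+BMP4 and 2427 CPM under RA, and mesenchyme markers to 195 CPM and 259 CPM. The 5 floor plate markers summed to 44.9 CPM under RA+BMP4 and 128 CPM under RA, with the defining marker Shh at 0 in both. Pan-neuronal markers summed to 246 CPM under RA+BMP4 and 154 CPM under RA, and dI1 markers to 13.9 CPM and 2.49 CPM. The part of these differences in the results was not tested.

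Cells with Cp differed from their neighbours in some other genes in the same way in both libraries, but not in all genes examined. After thinning, Colec12, a scavenger receptor gene, was found in 45.4% of RA+BMP4 cells with Cp and 22.8% of those without. Under RA it was found in 73.6% of cells with Cp and 43.2% of those without. Wnt1 ran the other way, with 44.1% of cells with Cp and 61.1% of cells without under RA+BMP4, and 26.4% and 43.2% under RA. Folr1, a folate receptor of choroid plexus epithelium, was found in 9.54% and 3.56% under RA+BMP4 and in 22.9% and 9.06% under RA. Enpp2, another choroid plexus gene, ran the other way, with 7.73% of cells with Cp and 12.8% of cells without under RA+BMP4, and 3.69% and 9.37% under RA. Zic1, a marker of the class, did not run alike in the libraries, with 62.1% and 68.3% under RA+BMP4 and 62.8% and 60.7% under RA. Mt2 was found about equally in cells with and without Cp, in 7.47% and 7.29% under RA+BMP4 and in 19.2% and 23.0% under RA. These cells share a library and a class, so the shares describe the cells captured.

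The choroid plexus, a known source of ceruloplasmin, was sought by its markers. Sostdc1, an inhibitor of BMP and Wnt signals, stood at 127 CPM under RA+BMP4 and 162 CPM under RA in dorsal midline-like cells. Folr1 stood at 13.5 CPM under RA+BMP4 and 38.5 CPM under RA, and it was also present in pluripotent-like cells, at 113 CPM and 110 CPM. Enpp2, a secreted phospholipase gene, went the other way, with 26.0 CPM under RA+BMP4 and 13.0 CPM under RA. Ttr, the transthyretin gene that defines the mature epithelium, had 3 UMIs in RA+BMP4 and 4 UMIs in RA cells of the class, and Kcne2 had 1 in each. The 10 markers summed to 170 CPM under RA+BMP4 and 215 CPM under RA, and Sostdc1 made up most of both sums. Kcnj13 stood at 1.31 CPM under RA+BMP4 and 1.22 CPM under RA, Otx2 at 1.17 and 0.35 CPM, and Clic6 at 0.48 and 0.26 CPM. Kl had 0.23 CPM under RA+BMP4 and 0.13 CPM under RA, and Prlr 0.11 and 0.09 CPM. The sums are therefore not read as a level of choroid plexus cells.

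Other genes of metal handling were examined in dorsal midline-like cells, beside a median log2 ratio of 0.07 over the 7020 genes tested. Of 20 zinc transporters 6 were tested, and 0 were 2-fold apart in either direction, with a median of 0.02. Of all genes tested 2.65% were, so a count of 0 among so few is no result about them. Slc30a1, the zinc exporter that MTF1 induces, was under 20 CPM, at 12.4 CPM under RA+BMP4 and 13.8 CPM under RA. Mtf1 itself stood at 24.5 CPM under RA+BMP4 and 24.97 CPM under RA. Of 14 copper genes 8 were tested and 0 were 2-fold apart (median 0.12). Atp7a, a copper pump, stood at 36.6 CPM under RA+BMP4 and 34.8 CPM under RA, and Atp7b, the pump that loads ceruloplasmin in liver, at 6.47 CPM and 2.45 CPM (1.40, 0.97 to 1.85). Picked from the listed genes under 20 CPM once their values were seen, Slc39a11, a zinc transporter, had 9.37 CPM under RA+BMP4 and 5.73 CPM under RA (0.71, 0.41 to 1.01), and Sod3, the extracellular superoxide dismutase, had 5 UMIs under RA+BMP4 and 16 UMIs under RA (-2.30, -4.10 to -0.78).

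Of 14 listed iron genes, 6 were tested and 0 were 2-fold apart (median -0.11). Ftl1, the ferritin light chain, stood at 1626 CPM under RA+BMP4 and 2257 CPM under RA (-0.47). Fth1, the heavy chain, stood at 958 CPM under RA+BMP4 and 1002 CPM under RA. Slc40a1, ferroportin, the exporter with which ceruloplasmin works, stood at 2.68 CPM under RA+BMP4 and 5.16 CPM under RA, a log2 ratio of -0.95 (-1.35 to -0.54) on 94 and 118 UMIs.

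Stress lists were examined because metallothioneins are induced by several stresses. Of 9 tested NRF2 and oxidative stress genes 0 were 2-fold apart (median -0.01), and of 3 tested genes of a glucocorticoid list 0 were (median 0.32), where 2.65% of all genes tested were. Those 3 were Tsc22d3 (0.86), Dusp1 (-0.27) and Nr3c1 (0.32), the gene of the glucocorticoid receptor itself. Of 8 tested hypoxia-induced genes 2 were at least 2-fold higher under RA+BMP4 (median 0.68), where 1.44% of all genes tested were. Bnip3, a mitophagy gene, stood at 89.9 CPM under RA+BMP4 and 28.5 CPM under RA (1.66), and Ldha, lactate dehydrogenase, at 776 CPM and 351 CPM (1.15). The listed hypoxia genes under 20 CPM went both ways. Ankrd37 (1.65) and Egln3 (0.54) were higher under RA+BMP4, Ndrg1 (-1.27) and Adm (-1.05) were lower, and Car9 had 1 UMI in each library. Of 8 tested heat shock and immediate early genes 2 were at least 2-fold lower, where 1.21% of all genes tested were: Fos stood at 107 CPM under RA+BMP4 and 282 CPM under RA (-1.40), and Fosb at 21.7 CPM and 52.6 CPM (-1.28). Of 4 tested genes of a list of acute phase and plasma proteins 1 was at least 2-fold lower, beside the same 1.21%: Apoe, a lipid carrier, with 12.7 CPM under RA+BMP4 and 29.95 CPM under RA (-1.23). The others tested were Stat3, Socs3 and Il6st. The acute phase genes Hp, Saa3 and Lcn2 were under 20 CPM and were not tested.

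Genes with the most similar pattern were sought over 45 points, each a cluster of at least 30 cells in 1 library, by Pearson's r of log2(CPM + 5). The points share libraries and depth, so r is a description. Mt1 was most like Upp1, a uridine phosphorylase (0.81), Apobec3, a cytidine deaminase (0.80), and Syce1 of the synaptonemal complex (0.79). Mt2 was most like Tsix, the RNA antisense to Xist (0.87), Cth, cystathionine gamma-lyase (0.83), and Trap1a (0.83). Mt1 and Mt2 had 0.79 with each other. Mt3 was most like Etv1 (0.79), Med25 (0.78) and the radial glial fatty acid carrier Fabp7 (0.76). Cp was most like C1qtnf3 (0.95), the chemokine gene Cx3cl1 (0.95) and Sostdc1 (0.94), and had -0.16 with Mt1 and 0.33 with Mt2.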

How the data were processed

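Day 9 cells were dissociated with cold trypsin, depleted of dead cells and captured with 10x Genomics 3′ v3 chemistry, per the labels' protocols. The values deposited by the authors were raw counts of UMIs for each gene in each barcode. The submitters' processing notes name the GRCm38 build, CASAVA and Cell Ranger 3.0.2. The annotation release is not given in the sources used here.

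Barcodes were kept with 1000 genes or more and no more than 10% of UMIs from mitochondrial genes, and Scrublet (scanpy 1.11.5, expected rate 8%) removed 298 RA+BMP4 and 138 RA doublets. Both libraries were clustered together on 3000 variable genes with 30 principal components, 20 neighbours and leidenalg 0.10.2 at resolution 1. The clustering used none of the 4 genes, the markers, the listed genes, or the mitochondrial and ribosomal genes. Each cluster was named for the class whose markers were most frequent among its 10 leading genes, with ties going to the class of the highest mean fold, if 3 markers were present. This rule was written after the clusters had been seen, and the cluster led by S100g was left unnamed because its leading genes went against its name. Clusters 18 and 20 also stayed unnamed.

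Counts were summed per library and class, and ratios carry exact conditional binomial 95% intervals. A count of 0 set against a larger one was put at 3 counts. No p-value was computed. Genes with at least 20 CPM in 1 library counted as tested, and those at least 2-fold apart as called. The members, gene lists and markers were chosen with earlier results of these data known. Genes named are the members, listed and marker genes, and the 3 most alike in pattern. Colec12, and the cells with at least 10 Mt1 UMIs, were singled out after their values were seen. The steps were tested on simulated data. Coordinates are those of GENCODE vM21 and promoter sequences those of RefSeq (GRCm38.p6), where all 4 genes were found. PCR duplicates are removed by UMIs, but intervals and floors cover counting error only.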

Additional observations from a re-analysis of the deposited data

Results flagged for a closer look

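The ratio of RA+BMP4 to RA had opposite signs in different classes for 2 of the genes, with counting intervals on either side of 0. For Mt1 the log2 ratio was 1.27 in newborn neuron-like cells and -0.77 in mesenchyme-like cells. The first rests on 6 RA+BMP4 cells that held 54.1% of the Mt1 UMIs of that class, and it was 0.18 without them. For Mt2 the log2 ratio was 0.23 in pluripotent-like cells and -1.74 in dorsal midline-like cells. With 1 library per condition these differences between classes were not tested.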

How the results depend on the processing

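No paired analysis was possible because each condition had 1 library and the labels carry no replicate numbers. Leaving out a replicate was not possible for the same reason. All values here are log2 ratios of RA+BMP4 over RA, and in all kept cells and in dorsal midline-like cells each of the 4 genes kept its direction under each alternative run there. In dorsal midline-like cells Mt2 lay between -2.12 and -1.32 over 14 alternatives and Cp between -2.08 and -0.84. Of these, 14 for Mt2 and 12 for Cp were at least 2-fold lower.

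In dorsal midline-like cells a stricter cell filter (2000 genes, 5% mitochondrial UMIs), which left 191 RA cells, gave Mt1 -0.40, Mt2 -2.12, Mt3 -1.31 and Cp -1.13. Keeping doublets gave Mt2 -1.93 and Cp -1.61. Weighting each cell the same gave Cp -1.91. Leaving out the top 1% of cells gave Mt1 -0.82 and Cp -2.08. Clustering each library alone gave Mt1 -0.78 and Cp -0.87: the RA cluster led by Cp and Colec12 was then unnamed, and adding it, a step chosen after the data were seen, gave Cp -1.76. Clustering with the 4 genes kept gave Mt1 -0.49, Mt2 -1.98, Mt3 -1.30 and Cp -1.71. Choosing cells by marker UMIs gave Mt1 -0.40 and Mt2 -1.57. Holding the cluster makeup at the RA shares of UMIs gave Mt2 -1.32, Mt3 -0.59 and Cp -0.84. Leaving out the cluster led by Cp, also chosen afterwards, gave Mt2 -1.92 and Cp -1.67. Where no cause is named, the cause was not tested.

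In all kept cells the stricter filter gave Mt1 -0.68, Mt2 -1.18, Mt3 -1.90 and Cp -0.32. Median-of-ratios scaling gave Mt1 -0.61 and Mt2 -1.18. Weighting each cell the same gave Mt1 -0.50, Mt2 -1.22 and Cp -0.94. Leaving out the top 1% of cells gave Mt1 -1.21, Mt2 -1.96, Mt3 -1.51 and Cp -1.26. Leaving out pluripotent-like cells gave Mt1 -0.23, Mt2 -1.36 and Cp -1.22.

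At a limit of 5 CPM, 247 genes were at least 2-fold higher and 190 lower in dorsal midline-like cells, against 101 and 85 at 20 CPM, and with no limit 890 and 1061. In all kept cells the counts were 165 and 156 at 5 CPM, 59 and 43 at 20 CPM, and 1091 and 1181 with no limit. Depth limits Mt3 most, which had 142 RA+BMP4 and 179 RA UMIs in dorsal midline-like cells. By class, leaving out cells with at least 10 Mt1 UMIs or with a pluripotent marker UMI moved 6 of 32 values of Mt1 and Mt2 beyond their counting interval. It changed the sign of 1, Mt1 in dI2-like cells, which was -0.08 with an interval that includes 0 and 0.12 without cells that had a pluripotent marker UMI.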

Other observations

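Barcodes left out by the filters held the same genes. Barcodes with under 1000 genes had Mt2 at 33.4 CPM under RA+BMP4 and 105 CPM under RA, and Cp at 13.6 CPM under RA+BMP4 and 15.6 CPM under RA. Barcodes over 10% mitochondrial UMIs had Mt2 at 43.0 CPM under RA+BMP4 and 103 CPM under RA, and Cp at 14.4 CPM and 39.1 CPM.

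The unnamed cluster led by S100g, with 32 RA+BMP4 and 27 RA cells, had Mt1 at 590 CPM under RA+BMP4 and 368 CPM under RA, and Mt2 at 137 CPM and 42.7 CPM. Its Mt2 log2 ratio was 1.68 (1.23 to 2.16), and its other leading genes include Srgn, Rbp4, Cubn and Ttr.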
